A study of Mus musculus with 29 samples.

Results

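The genes described here encode proteins of the splicing machinery in mouse cortex. They are the rows of the deposited count tables whose Ensembl ID carries a mouse symbol that starts with Srsf and a number, Snrp, Sf3a or Sf3b and a number, Hnrnp, or Prpf and a number, without pseudogenes. A total of 65 genes met this rule among 25746 genes in the files, 11 Srsf, 12 Snrp, 9 Sf3, 20 Hnrnp and 13 Prpf genes. The annotation holds 66 such symbols, and the remaining symbol was not analysed here. All 65 passed the filter on low counts, so none of the counts below rests on a part of the list.

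Splicing removes introns from a pre-mRNA and is carried out by the spliceosome, which is built from small nuclear ribonucleoproteins (snRNPs) called U1, U2, U4, U5 and U6. The Sm proteins (Snrpb, Snrpd1, Snrpd2, Snrpd3, Snrpe, Snrpf and Snrpg) form the ring that most of these particles share, while Snrpa and Snrpc belong to U1 and Snrpa1 and Snrpb2 to U2. The Sf3a and Sf3b proteins hold the U2 particle at the branch point, and the Prpf proteins include core parts of the U4/U6.U5 particle such as Prpf8. Srsf genes encode SR proteins, which mostly promote the inclusion of exons, and Hnrnp genes encode hnRNP proteins, which coat nascent RNA and often oppose exon inclusion. In brain, Snrpn replaces Snrpb in many particles, and many neuronal exons depend on the balance of SR and hnRNP proteins.

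Photothrombotic stroke was set in the right sensorimotor cortex, and RNA was taken 21 days after stroke from mice of both sexes aged 3 months. Non-stroked tissue gave 4 wildtype C57BL/6J (WT), 3 Rag2-/- and 4 NSG samples. Stroked tissue gave 4 WT, 3 Rag2-/- and 3 NSG samples, 3 samples of WT mice treated with tacrolimus from the day of stroke (WT-Tacr acute) and 5 of WT mice given tacrolimus with a delay (WT-Tacr delayed). The Rag2-/- strain lacks mature lymphocytes of the T and B lineages. The NSG strain is also without NK cells and has a NOD background, so that background and immunodeficiency cannot be told apart in any NSG comparison. Control RNA is described once as contralesional and once as from naive animals, hence the name non-stroked, and whether a mouse gave both kinds of sample is not given in the sources used here. WT mice came from a commercial breeder and the other strains from a local facility, and source and strain cannot be told apart either.

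The files hold raw read counts, with 17789044 to 43403413 counts per library, of which the 65 genes took 0.659% to 0.827%. By the prefix of their labels the libraries form 2 cohorts, Imm2 with 20 libraries (all non-stroked, Rag2-/- and NSG samples, 2 stroked WT and 1 WT-Tacr acute sample) and TF with 9 libraries (2 stroked WT, 2 WT-Tacr acute and all 5 WT-Tacr delayed samples). The first stroked NSG library stood apart from the other libraries of its group, with a median absolute deviation of 0.287 on the log2 scale over all genes tested, against 0.070 to 0.235 in the other 28 libraries. Levels are given in CPM, the counts of a gene relative to the TMM-adjusted size of its library, and differences were tested by edgeR's quasi-likelihood method in 1 fit of all 8 groups over 17031 genes. Log2 fold changes are given ± SE. A gene is called higher or lower at a Benjamini-Hochberg adjusted p below 0.05 over these genes, with no minimum fold change. Markers of neurons, astrocytes and oligodendrocytes were abundant in every group. T and B lymphocyte markers summed to 2.50 to 36.4 CPM over 10 genes, and those of choroid plexus and ependyma varied most, from 9.24 to 1607 CPM over 8 genes.

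Levels of the genes can be compared with each other per length of their transcript. In non-stroked WT mice the highest level was that of Snrpn with 436 CPM per kb, followed by Hnrnpa2b1 with 95.8, Sf3b2 with 91.6 and Hnrnpk with 88.9 CPM per kb. Hnrnp genes had the highest family median (43.9 CPM per kb), followed by Srsf (25.4), Sf3 (18.8), Prpf (14.7) and Snrp genes (10.2). The most abundant SR protein gene was Srsf5 (79.1 CPM per kb) and the most abundant Prpf gene was Prpf8 (41.2 CPM per kb). The lowest levels per family were Snrpg with 2.51, Prpf4 with 3.84, Sf3b5 with 4.31, Hnrnpr with 4.46 and Srsf12 with 7.55 CPM per kb. These values rest on the longest coding transcript of each gene, which is 21452 bases for Hnrnpr and 1055 bases for Snrpg, and on raw counts that include every transcript of the gene.

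Non-stroked NSG cortex held less mRNA of a small group of these genes than non-stroked WT cortex, and none was higher. Of the 65 genes 5 were lower (Snrpd1, Hnrnph1, Hnrnph3, Hnrnpm and Hnrnpul2), against 4.92% of all genes tested that were lower and 4.84% that were higher, so that the lower share of 7.69% was close to this background, while 0 of 65 were higher. The differences were small, between 0.25 and 0.55 on the log2 scale, and none passed a log2 fold change of 1. A total of 54 of the 65 estimates were below 0, and their median was -0.09 against 0.01 over all genes tested. Without normalization factors 46 estimates were below 0, and the medians were -0.042 and 0.047. In bulk tissue, fewer cells of a type and less RNA per cell cannot be told apart.

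Snrpd1 encodes an Sm protein and lies on the plus strand of chromosome 18 (10617775 to 10642079, GRCm38). Its levels were 25.5, 25.5, 27.9 and 29.2 CPM in non-stroked WT, 25.5, 24.5 and 31.2 CPM in Rag2-/- and 16.2, 19.9, 18.6 and 19.2 CPM in NSG mice. Every NSG sample lay below every WT and Rag2-/- sample. The log2 fold change of NSG against WT mice was -0.55 (SE 0.134, edgeR adjusted p = 0.00767), and against Rag2-/- mice it was -0.55 (SE 0.144, edgeR adjusted p = 0.0176). Both values share the 4 NSG samples.

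Hnrnph1 and Hnrnph3 encode related hnRNP proteins that bind runs of G in RNA. Hnrnph1 (chromosome 11, 50376990 to 50386528) was at 270, 261, 269 and 311 CPM in non-stroked WT and at 230, 218, 251 and 212 CPM in NSG mice, and the groups did not overlap (-0.28 ± 0.080 in log2, edgeR adjusted p = 0.0217). Hnrnph3 (chromosome 10, 63014664 to 63024217) was at 45.5, 51.7, 44.5 and 52.1 CPM in WT and at 42.3, 36.6, 42.6 and 36.6 CPM in NSG mice (-0.29 ± 0.0778 in log2, edgeR adjusted p = 0.0147). The other members of this subfamily pointed the same way without passing the test, with log2 fold changes of -0.28 for Hnrnpf (SE 0.099, edgeR adjusted p = 0.0733) and -0.26 for Hnrnph2 (SE 0.107, edgeR adjusted p = 0.128). In Rag2-/- mice Hnrnph1 was at 244 to 251 CPM, below every WT sample and overlapping with NSG mice.

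Hnrnpm, a widely expressed splicing regulator (chromosome 17, 33646233 to 33686860), was at 127, 124, 120 and 128 CPM in WT and at 105, 102, 103 and 105 CPM in NSG mice (-0.26 ± 0.0685 in log2, edgeR adjusted p = 0.0133). Hnrnpul2, an hnRNP U-like protein (chromosome 19, 8820010 to 8834143), was at 334, 307, 332 and 332 CPM in WT, 304, 298 and 303 CPM in Rag2-/- and 274, 287, 267 and 273 CPM in NSG mice (of NSG against WT -0.25 ± 0.0657 in log2, edgeR adjusted p = 0.0156). The 3 strains thus followed each other without overlap for Hnrnpul2, but Rag2-/- mice passed the test against neither WT (log2 fold change -0.11, edgeR adjusted p = 1) nor NSG mice (log2 fold change of NSG against Rag2-/- -0.13, edgeR adjusted p = 0.332). Both genes share exon sequence with a neighbour on the same strand, 14.7% of the exon bases of Hnrnpm with March2 and 5.1% of those of Hnrnpul2 with AC129217.1, and how reads of the shared parts were assigned is not given in the sources used here.

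**Figure D1:**
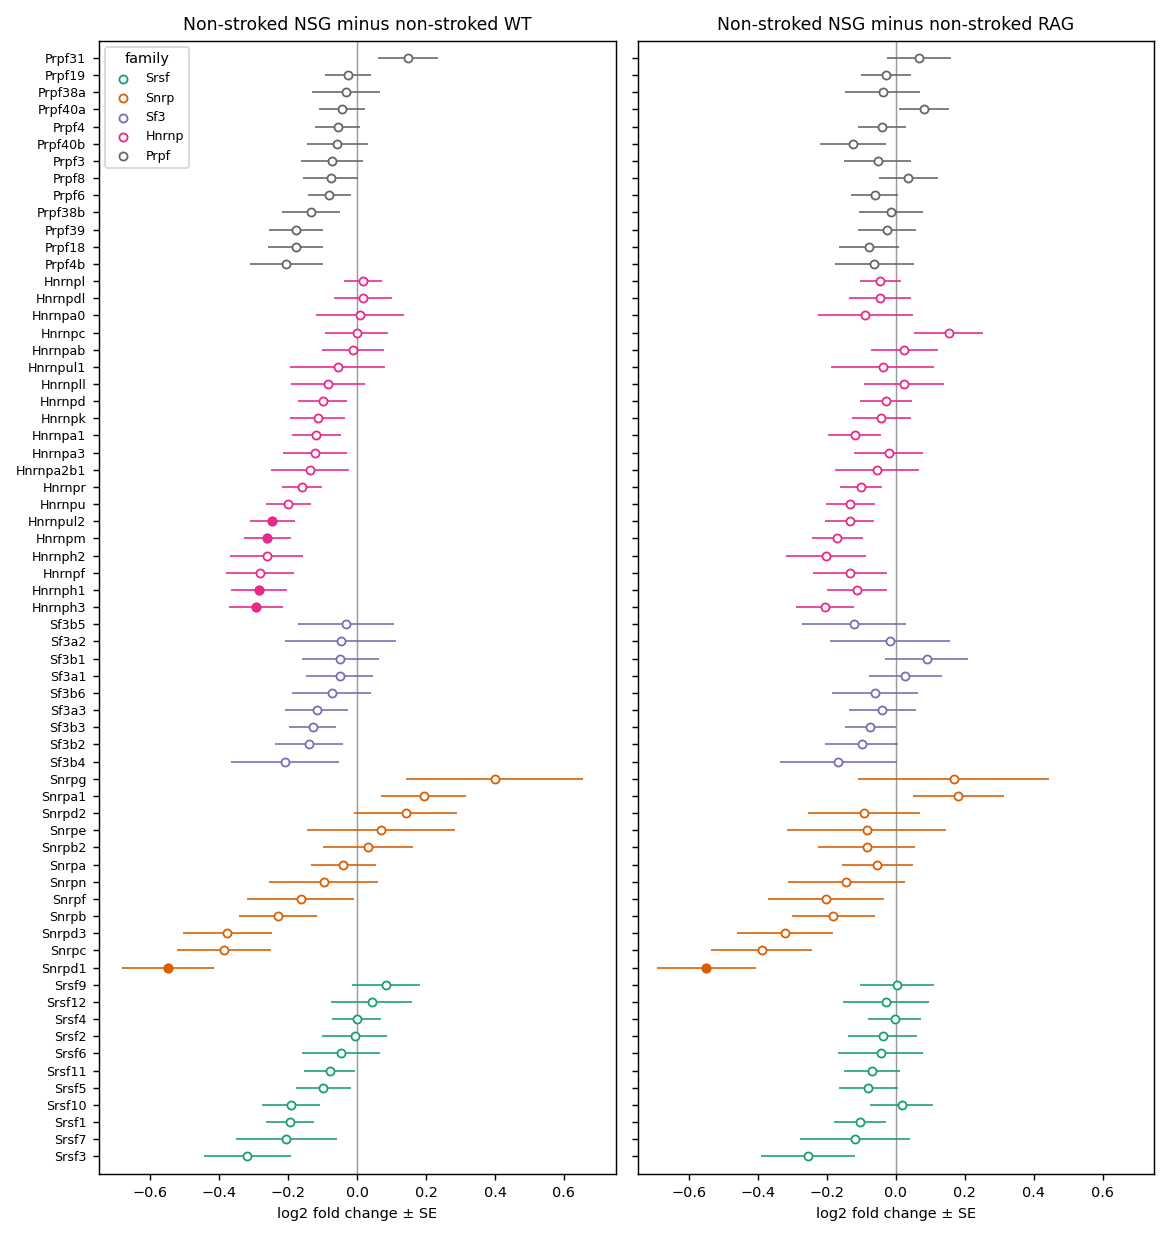
Log2 fold change with its SE for all 65 genes between non-stroked NSG and non-stroked WT mice (left) and between non-stroked NSG and non-stroked Rag2-/- mice (right, headed RAG), ordered by family and by the left value. Filled points are called at an adjusted p below 0.05; these are the 5 lower genes on the left and Snrpd1 on the right, and 54 of 65 points on the left lie below 0.

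By family, 4 of 20 Hnrnp genes and 1 of 12 Snrp genes were lower in NSG than in WT mice, and 0 of 11 Srsf, 0 of 9 Sf3 and 0 of 13 Prpf genes passed the test in either direction. The median log2 fold change was -0.12 for Hnrnp, -0.08 for Srsf, -0.07 for Sf3, -0.07 for Prpf and -0.07 for Snrp genes. All 9 Sf3 genes and 12 of 13 Prpf genes had estimates below 0. Snrp genes spread most widely, from -0.55 for Snrpd1 to 0.40 for Snrpg, whose 4 NSG samples (2.97 to 4.22 CPM) all lay above the 4 WT samples (2.48 to 2.94 CPM) without passing the test (SE 0.256, edgeR adjusted p = 0.384). Between groups without any overlap, 18 of 65 genes lay lower in NSG mice (27.7%), against 11.9% of all genes tested, and 3 lay higher (4.62%, Snrpg, Snrpa1 and Prpf31), against 9.84% of all genes tested. Among those 18 genes were further Sm and U1 genes. Snrpc of U1 was at 15.9 to 17.1 CPM in NSG and at 20.59 to 22.01 CPM in WT mice (edgeR adjusted p = 0.077), and Snrpd3 was at 46.0 to 58.8 CPM in NSG and at 62.1 to 68.6 CPM in WT mice (edgeR adjusted p = 0.0641). Srsf3, an SR protein gene, was at 48.61 to 56.07 CPM in NSG and at 56.15 to 69.40 CPM in WT mice (log2 fold change -0.32, edgeR adjusted p = 0.120).

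A fit of only the 11 non-stroked samples, chosen after the data were seen, called 13 of the 65 genes lower and 0 higher, against 9.9% and 10.4% of all genes tested, and these 13 included all 5 genes named above together with Hnrnpf, Hnrnph2, Prpf18, Prpf4b, Snrpc, Snrpd3, Srsf1 and Srsf3. Without the second NSG or the fifth WT sample 3 genes were lower. Without normalization factors 3 genes were lower as well, and Hnrnph1, Hnrnph3 and Hnrnpm were then not called, while 5.31% of all genes were higher and 3.84% lower.

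Against non-stroked Rag2-/- mice, 1 of 65 genes was lower in NSG mice (Snrpd1) and 0 were higher, with 3.26% and 3.07% of all genes tested called in these directions. At an unadjusted p below 0.05 edgeR gave 5 genes, all lower in NSG mice. Over all 17031 genes tested it gave 3099 at this level, 1390 of them lower. DESeq2 called Snrpd1 alone. A total of 53 of 65 estimates were below 0, with a median of -0.06 against 0.01 over all genes tested. In 10 genes (15.4%, against 12.1% of all genes tested) every NSG sample lay below every Rag2-/- sample, among them Hnrnpm, Hnrnpul2, Hnrnph2, Snrpc and Srsf3. Without the first NSG or the fourth Rag2-/- sample Snrpd1 did not pass, and 0 genes were left.

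Between non-stroked Rag2-/- and WT mice the test called 0 of 65 genes in either direction, and over all genes tested it called 0% higher and 0.00587% (1 gene) lower. At an unadjusted p below 0.05 edgeR gave 1 of the 65 genes, against 349 of all 17031 genes tested. This was Srsf10 (-0.21 ± 0.0916 in log2, edgeR adjusted p = 1), and DESeq2 called 0. The median of the 65 estimates was -0.04, with 42 of them below 0, and the median SE was 0.101 on the log2 scale.

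Several other measures moved between the same groups. Immediate early genes, which neurons switch on within minutes of activity, were summed to 806 to 1300 CPM over 15 genes in non-stroked NSG mice, against 1581 to 3622 CPM in WT and 1709 to 3120 CPM in Rag2-/- mice, and 10 of the 15 were lower in NSG than in WT mice. Of 11 heat shock and cold-inducible genes 5 were lower and 1 (Cirbp) was higher in NSG than in WT mice. Of the 13 mitochondrially encoded mRNAs 2 were lower in NSG than in WT mice, by far more than the others. Their log2 fold changes were -8.64 for mt-Nd3 and -5.91 for mt-Nd4l, with a median of -0.215 over the 13. Why these 2 differed so far was not tested. Markers of neurons, astrocytes, oligodendrocytes and vessels had 0 called genes in this comparison, and 2 of 10 markers of microglia and macrophages (P2ry12 and Tmem119) were higher in NSG mice. Ddx3y, a gene on chromosome Y, was at 49.2 to 53.1 CPM in all 8 of these WT and NSG samples, whereas in Rag2-/- mice it was at 0, 0.0566 and 38.9 CPM. With Ddx3y as a covariate 5 of the 65 genes (7.69%) were lower and 0 higher in NSG than in Rag2-/- mice, against 4.7% and 5.2% of all genes. The part of the other measures in the differences between strains was not tested.

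Other genes of the splicing pathway, from lists chosen with earlier results of these data known, had lower and no higher calls in non-stroked NSG against WT mice, where 4.92% of all genes were lower. Of 54 other spliceosome components 3 were lower (log2 fold changes of -0.71 for Aqr, -0.28 for Cdc5l and -0.27 for Eftud2), with a median of -0.07. Of 30 SR-related and exon-junction factors in the files 4 were lower, with Rnps1, an exon-junction protein, showing the largest of these differences (-0.97 ± 0.0993 in log2, edgeR adjusted p = 1.01e-07), followed by Tra2a, Acin1 and Tra2b. Of 40 tested tissue-regulated splicing regulators 4 were lower (log2 fold changes of -0.39 for Khdrbs1, -0.28 for Taf15 and -0.25 for Pcbp2 and Syncrip). Of 11 kinases and phosphatase genes that act on SR proteins 1 was lower (Clk3), and of 13 genes for snRNP assembly and import 0 were called.

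The start sites of these genes are described by motif. Promoter windows from RefSeq (GRCm38.p6, 250 bases before to 30 bases after the start) were found for 57 of the 65 genes, in 77 windows of 32851 in all. The ETS core CGGAAG, searched on both strands, stood in 38 of the 77 windows (49.4%) against 16% of all windows, and the letters TCGCGAGA in 5 (6.49%) against 0.974% of all. CCAAT stood in 46.8% against 36.1%, the E-box CACGTG in 14.3% against 6.79%, the element TGACGTCA in 2.6% against 1.74%, GCATGCGC in 3.9% against 2.58%, and TATAAA in 9.09% against 13.1%. Windows of the same gene can overlap, and a match is a run of letters, not a measured site. Shown are 2 of the Hnrnp genes that were lower in NSG mice, each from 150 bases before to 30 bases after the start on the minus strand, with any of the 7 motifs in capitals. For Hnrnph3 (chr10:63023820-63023999) the capitals mark TCGCGAGA, and for Hnrnpm (chr17:33685429-33685608) they mark the E-box.
Hnrnph3: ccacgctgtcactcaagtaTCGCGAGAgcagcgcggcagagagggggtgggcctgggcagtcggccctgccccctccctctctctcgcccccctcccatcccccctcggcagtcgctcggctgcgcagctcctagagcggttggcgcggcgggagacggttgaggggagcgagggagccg
Hnrnpm: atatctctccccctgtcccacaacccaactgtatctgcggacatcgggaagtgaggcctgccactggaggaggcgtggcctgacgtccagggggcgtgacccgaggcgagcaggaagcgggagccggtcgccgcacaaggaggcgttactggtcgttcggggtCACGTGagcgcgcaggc
No motif of the 7 was shared by these windows.

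After stroke 7 of the 65 genes were higher and 2 lower in NSG mice, against 13% and 8.89% of all genes tested. These are 10.8% and 3.08% of the 65, both below these shares of all genes. The higher genes were Snrpa1, Sf3b5, Snrpd1, Srsf9, Hnrnph3, Hnrnpf and Hnrnpm, and the lower genes were Prpf8 and Hnrnpr. Snrpa1, a U2 protein gene, was at 15.3, 14.9, 15.1 and 18.2 CPM in non-stroked and at 28.8, 16.1 and 20.2 CPM in stroked NSG mice (0.45 ± 0.131 in log2, edgeR adjusted p = 0.0154). Prpf8, the central protein of the U5 particle, was at 308, 275, 302 and 276 CPM in non-stroked and at 193, 260 and 249 CPM in stroked NSG mice (-0.31 ± 0.0866 in log2, edgeR adjusted p = 0.0124). In both genes the first stroked NSG library was the farthest from the non-stroked samples. Without it 1 gene passed, Hnrnpr (74.0, 67.8 and 78.9 CPM against 87.9, 83.8, 91.5 and 79.1 CPM, with all samples -0.22 ± 0.0617 in log2, edgeR adjusted p = 0.0136), against 8.03% of all genes higher and 2.9% lower. A fit of only the NSG groups called 0 of 65 with edgeR, against 4.52% and 0.384% of all genes. At an unadjusted p below 0.05 it gave 7 of the 65, against 3799 of all 16151 genes. Markers of microglia and macrophages summed to 802 to 1219 CPM in stroked and 377 to 438 CPM in non-stroked NSG mice, and their part in these values was not tested.

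Snrpd1, Hnrnph3 and Hnrnpm were lower in non-stroked NSG than in WT mice and higher in stroked than in non-stroked NSG mice, and both comparisons share the 4 non-stroked NSG samples. Snrpd1 was at 34.6, 19.0 and 20.1 CPM in stroked NSG mice (0.41 ± 0.144 in log2, edgeR adjusted p = 0.0409). The values of 19.0 and 20.1 CPM lay near the highest non-stroked NSG value of 19.9 CPM, and without the first library Snrpd1 was at 0.073 in log2 (edgeR adjusted p = 0.751). Hnrnph3 was at 56.2, 47.3 and 45.6 CPM and Hnrnpm at 133, 127 and 110 CPM in stroked NSG mice, above all 4 non-stroked NSG samples in both genes (0.33 ± 0.0836 in log2, edgeR adjusted p = 0.00705 for Hnrnph3 and 0.25 ± 0.0737 in log2, edgeR adjusted p = 0.0170 for Hnrnpm). Without the first library neither passed (0.225, edgeR adjusted p = 0.0886 for Hnrnph3 and 0.185, edgeR adjusted p = 0.123 for Hnrnpm). The response of these genes in NSG mice did not pass the test against the response in WT mice (difference 0.37 ± 0.114 in log2, edgeR adjusted p = 0.204 for Hnrnph3 and 0.33 ± 0.101, edgeR adjusted p = 0.198 for Hnrnpm). Over the 65 genes that test called 0, and DESeq2 called 0 as well. Of all 17031 genes edgeR called 4 higher (0.0235%) and 1 lower (0.00587%). At an unadjusted p below 0.05 edgeR gave 11 of the 65, and the count of all genes at this level is not given here. The stroked WT samples are in both cohorts and all other samples of this test in Imm2, so strain and cohort are mixed in these differences. Ddx3y was at 0 CPM in 2 of the 3 stroked NSG samples and at 44.6 CPM in the third, against 49.2 to 53.1 CPM in all non-stroked ones, and its part was not tested in this comparison.

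In Rag2-/- mice stroke left these genes without a call, 0 of 65 against 6.71% of all genes tested that were higher and 1.53% that were lower. At an unadjusted p below 0.05 edgeR gave 3 of the 65, against 3691 of all 17031 genes tested. These were Srsf10 and Prpf38b with estimates above 0 and Hnrnpul2 with one below 0, and DESeq2 called 0. The strongest was Srsf10 (0.26 ± 0.0976 in log2, edgeR adjusted p = 0.0979). The 65 estimates ran from -0.34 to 0.26 with a median of 0.02. Their median SE was 0.108. Whether the response differs between Rag2-/- and NSG mice was not tested.

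In WT mice 8 genes were higher and 5 lower after stroke, against 15.2% and 11.6% of all genes tested. The higher ones were the Sm genes Snrpg, Snrpe, Snrpd2 and Snrpb and the SR genes Srsf2, Srsf3, Srsf6 and Srsf9, and the lower ones Sf3a1, Hnrnpul2, Hnrnph2, Hnrnpd and Hnrnpr. In several of these genes the stroked samples divided by cohort. Snrpg was at 2.48, 2.48, 2.94 and 2.69 CPM in non-stroked WT mice, at 3.43 and 3.58 CPM in the stroked Imm2 samples and at 6.74 and 6.87 CPM in the stroked TF samples (over all 0.95 ± 0.255 in log2, edgeR adjusted p = 0.00813). Snrpe was at 5.20 to 6.29 CPM in non-stroked WT mice, at 6.74 and 8.09 CPM in stroked Imm2 and at 13.3 and 11.9 CPM in stroked TF samples (0.75 ± 0.214 in log2, edgeR adjusted p = 0.0123). In Snrpd2 the stroked Imm2 samples (17.2 and 15.5 CPM) and TF samples (19.9 and 20.3 CPM) all lay above the non-stroked ones (11.5 to 13.7 CPM). Ddx3y was at 0 to 42.6 CPM in stroked and at 49.2 to 52.7 CPM in non-stroked WT mice. Its part was not tested in this comparison either.

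Within the Imm2 cohort, which holds every non-stroked sample, 0 of the 65 genes were higher and 2 were lower after stroke in WT mice, against 6.51% and 2.2% of all genes tested. These were Hnrnpul2 (267 and 273 CPM against 307 to 334 CPM, -0.27 ± 0.0805 in log2, edgeR adjusted p = 0.0474) and Hnrnpll (38.8 and 39.1 CPM against 44.4 to 54.8 CPM, -0.34 ± 0.0961 in log2, edgeR adjusted p = 0.0312). For Hnrnpll the TF samples pointed the other way, at 54.7 and 56.5 CPM. Snrpg kept a log2 fold change of 0.41 (SE 0.185, edgeR adjusted p = 0.192) and Snrpd2 of 0.35 (SE 0.172, edgeR adjusted p = 0.238) within Imm2, while Srsf3 was at 0.11 (SE 0.104, edgeR adjusted p = 0.566) and Srsf6 at 0.07 (SE 0.0755, edgeR adjusted p = 0.616). With the cohort as a covariate 0 genes were higher and 3 lower, against 7.42% and 4.89% of all genes. Of the 13 genes called over all WT samples, Hnrnpul2 was the only one also called within Imm2.

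**Figure D2:**
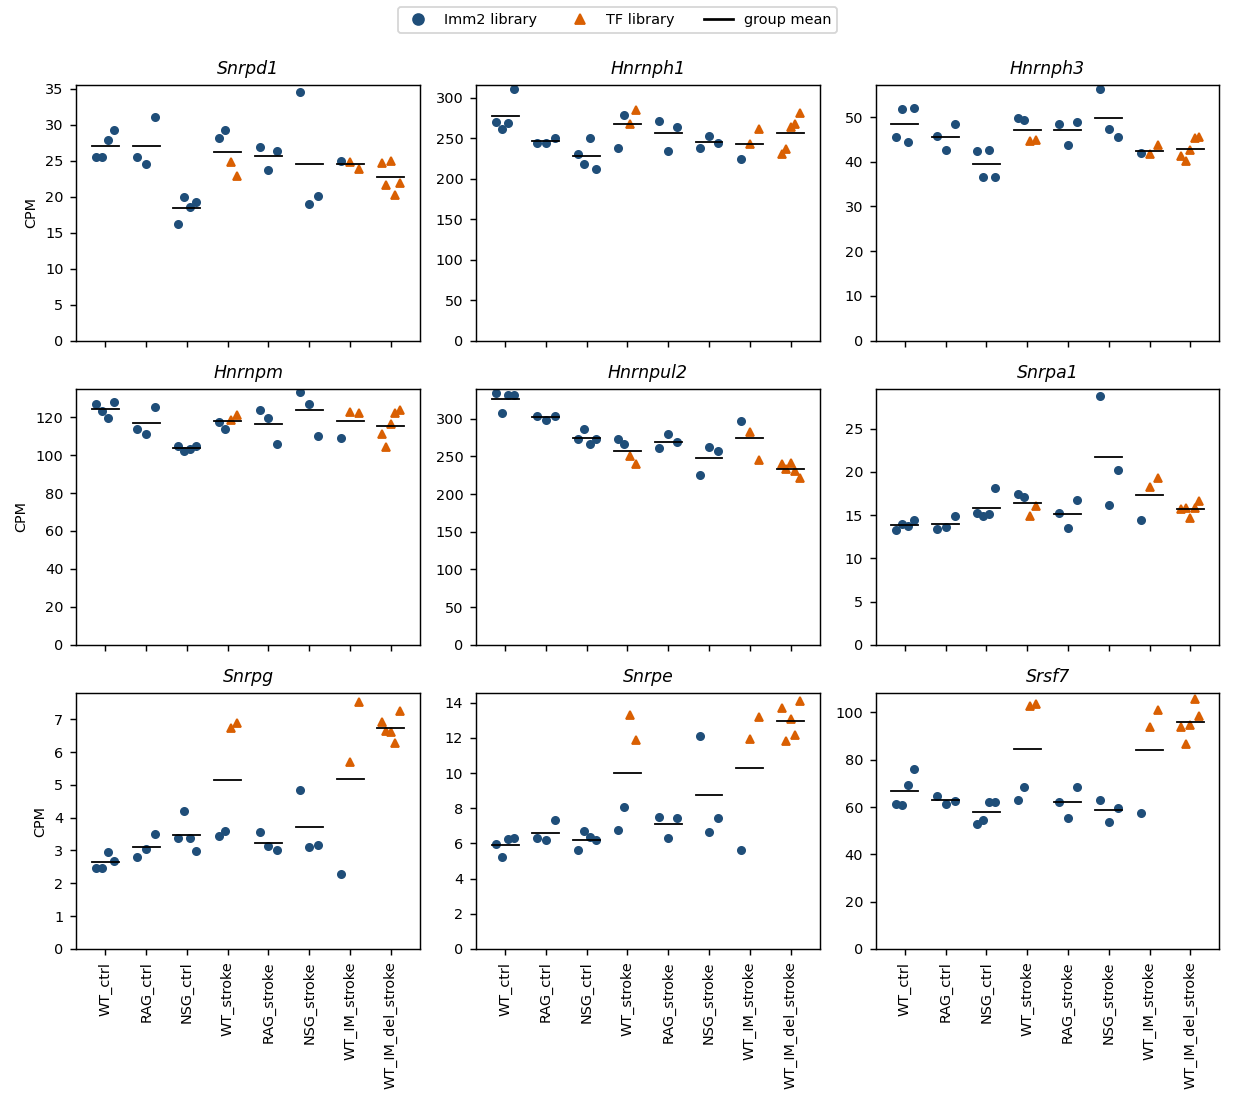
CPM of 9 genes in every library, by group, with Imm2 libraries as circles, TF libraries as triangles and the group mean as a line; WT_IM is WT-Tacr acute and WT_IM_del WT-Tacr delayed. Snrpd1 is lower in all 4 non-stroked NSG libraries (16.2 to 19.9 CPM) than in those of the other non-stroked strains, whereas Snrpg and Srsf7 split by cohort, with Snrpg at 5.70 to 7.53 CPM in TF and at 2.29 to 4.86 CPM in Imm2 libraries. Snrpe is higher in TF libraries except for the first stroked NSG library, which lies among them at 12.09 CPM.

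More of the 65 genes were called between the cohorts than in any comparison of groups with all samples. A term for TF against Imm2, estimated from the stroked WT and WT-Tacr acute samples that occur in both, called 20 of the 65 genes higher and 17 lower in TF, 30.8% and 26.2% of the genes against 13.2% and 14.4% of all genes tested. The Sm genes Snrpg (1.18 ± 0.164 in log2) and Snrpe (0.92 ± 0.155) and the SR genes Srsf7 (0.69 ± 0.0883), Srsf3 (0.56 ± 0.0852) and Srsf6 (0.54 ± 0.065) were higher in TF libraries, with edgeR adjusted p-values from 2.74e-06 to 0.000125. Sf3a2 (-0.76 ± 0.0908), Sf3b4 (-0.75 ± 0.0845) and Hnrnpul1 (-0.66 ± 0.0749) were lower in TF libraries. In 10 genes all 9 TF libraries lay above all 20 Imm2 libraries and in 8 genes below them, 15.4% and 12.3% of the genes against 2.01% and 3.92% of all genes tested. Srsf7 was at 86.8 to 106 CPM in TF and at 52.9 to 75.9 CPM in Imm2 libraries, Sf3b1 at 317 to 365 against 211 to 280 CPM, and Hnrnpa2b1 at 421 to 502 against 297 to 381 CPM. All WT-Tacr delayed and no non-stroked samples are in TF. Delayed tacrolimus can be compared with the other stroked WT groups within TF, and stroke with non-stroked samples within Imm2. WT-Tacr delayed and non-stroked samples share no cohort, so between them the cohort and the treatment or stroke cannot be told apart.

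By family, 7 of 11 Srsf genes were higher and 2 lower in TF (Srsf4 and Srsf12), while Sf3 genes had 2 higher (Sf3b1 and Sf3b3) and 4 lower (Sf3a1, Sf3a2, Sf3b2 and Sf3b4). Snrp genes divided into 4 higher (Snrpg, Snrpe, Snrpd2 and Snrpb) and 5 lower (Snrpa, Snrpc, Snrpd3, Snrpf and Snrpn), so that mRNAs for proteins of the same Sm ring were called in both directions. Hnrnp genes divided into 5 higher and 5 lower. Only 3 of 13 Prpf genes were called, Prpf18 and Prpf4b higher and Prpf3 lower. TF libraries were less deep (median 23155303 counts against 37223696). In the cohort term 8 of 13 mitochondrially encoded mRNAs were lower and 1 higher, and 8 of 12 neuronal markers were lower and 1 higher. Of the endothelial and pericyte markers 5 of 8 were higher, and of the microglia and macrophage markers 4 of 10, with 0 lower in both lists. Over all genes tested 13.2% were higher and 14.4% lower. Ddx3y was at 0 CPM in all 5 WT-Tacr delayed samples, which are all in TF. It was at 0 to 43.2 CPM (median 0) in WT-Tacr acute and at 0 to 42.6 CPM (median 17.7) in stroked WT mice. In these groups the mouse names of the Imm2 samples (2m_3, 2m_5 and 5m_1) hold an m, and those of the TF samples hold no such letter. Sex may thus differ between the cohorts. Where it does, sex and cohort cannot be told apart in the cohort term. What part these differences had in the values of the splicing genes was not tested.

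**Figure D3:**
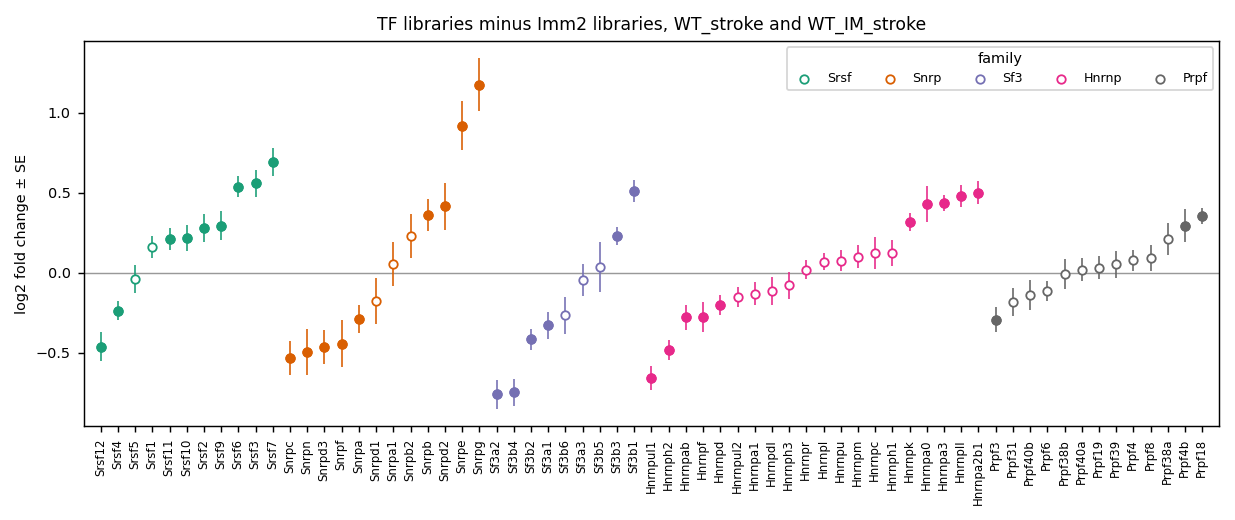
Log2 fold change with its SE of TF against Imm2 libraries for all 65 genes, grouped by family and ordered by value, from a fit with the 8 groups and a cohort term. Filled points are called at an adjusted p below 0.05; 20 genes lie above and 17 below 0, with Snrpg at 1.18 and Sf3a2 at -0.76 as the extremes.

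Snrpg and Snrpe, the genes with the highest cohort values, encode proteins of the Sm ring. Their promoters are shown, from 150 bases before to 30 bases after the start with the same motifs in capitals. Snrpg (chr6:86371390-86371569, plus strand) holds the ETS core, the TCGCGAGA element, a CCAAT box on the other strand and the TGACGTCA element. Snrpe (chr1:133610251-133610430, minus strand) holds the ETS core at 4 places on either strand, of which 2 overlap.
Snrpg: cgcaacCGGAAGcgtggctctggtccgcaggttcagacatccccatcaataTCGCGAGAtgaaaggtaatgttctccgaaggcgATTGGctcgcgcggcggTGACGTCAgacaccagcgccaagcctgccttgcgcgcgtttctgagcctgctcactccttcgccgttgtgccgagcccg
Snrpe: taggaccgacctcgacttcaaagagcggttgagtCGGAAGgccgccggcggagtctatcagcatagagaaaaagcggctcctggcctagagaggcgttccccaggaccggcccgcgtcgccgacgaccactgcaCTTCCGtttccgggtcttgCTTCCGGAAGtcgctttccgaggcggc
The letters TCGCGAGA of Snrpg are the ones also marked in Hnrnph3, a gene with no call in the cohort term.

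The median over the genes was also taken in each sample. Relative to the mean of non-stroked WT mice on the log2(CPM + 1) scale, the median of the 11 Srsf genes was 0.160 to 0.304 in the 9 TF libraries and -0.113 to 0.136 in the 20 Imm2 libraries. The median of all 65 genes was -0.113 to -0.062 in non-stroked NSG, -0.061 to 0.026 in Rag2-/- and -0.048 to 0.038 in WT mice. Every NSG sample thus lay below every other non-stroked sample, but the highest NSG value (-0.062) and the lowest Rag2-/- value (-0.061) nearly met. In stroked NSG mice it was -0.130 to 0.078. The first stroked NSG library stood apart in Snrp genes, whose median there was 0.543 against -0.153 and -0.054 in the other 2.

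**Figure D4:**
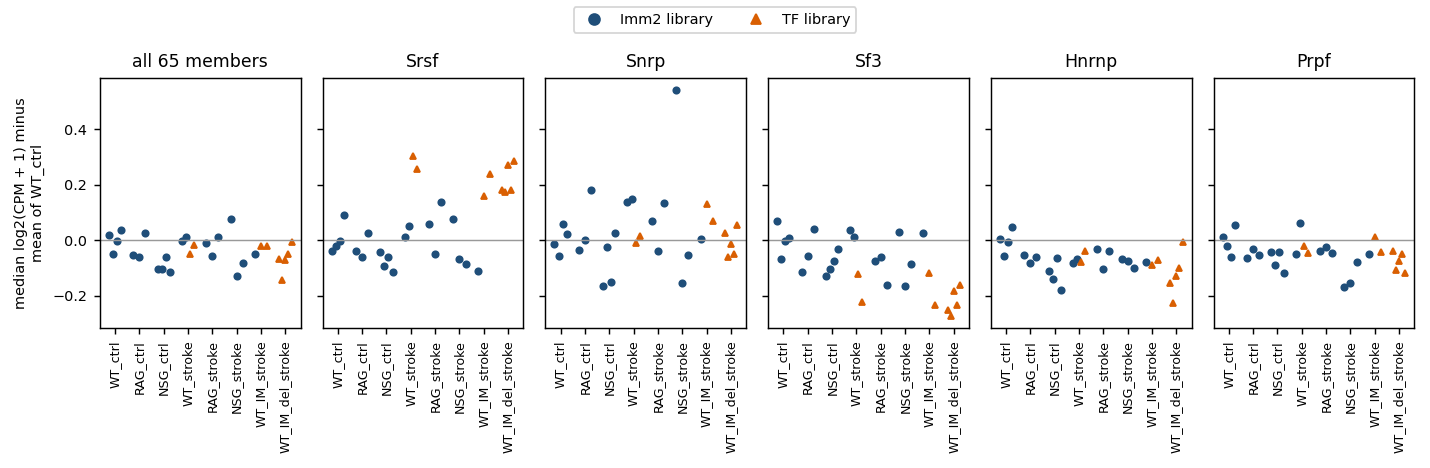
Median over all 65 genes (left) and over each family of log2(CPM + 1) minus the mean of non-stroked WT mice, for every library by group, with Imm2 libraries as circles and TF libraries as triangles. The Srsf panel separates TF (0.160 to 0.304) from Imm2 libraries. In the left panel all 4 non-stroked NSG libraries (-0.113 to -0.062) lie below the other non-stroked ones, of which the lowest, a Rag2-/- library, is at -0.061.

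Between tacrolimus-treated and untreated stroked WT mice edgeR called no gene. WT-Tacr acute against stroked WT mice gave 0 of 65 (3 at an unadjusted p below 0.05, DESeq2 0), as over all genes tested. WT-Tacr delayed against stroked WT mice gave 0 of 65 with edgeR, also within the TF cohort, and 2 lower with DESeq2 (Hnrnph2 and Hnrnpul1). At an unadjusted p below 0.05 edgeR gave 17 of the 65 with all samples and 2 within TF. Stroked WT samples are in both cohorts and WT-Tacr delayed samples only in TF, so cohort and treatment are mixed in the first count. The counts of all genes at this level are not given here, so no unadjusted count in this paragraph is a result about the 65 genes. Between WT-Tacr delayed and WT-Tacr acute mice 3 genes were lower and 0 higher, against 9.96% and 10.4% of all genes tested. These were Snrpn (-0.49 ± 0.161 in log2, edgeR adjusted p = 0.0344), Hnrnph2 (-0.35 ± 0.110, edgeR adjusted p = 0.0279) and Hnrnpul2 (-0.24 ± 0.0675, edgeR adjusted p = 0.0179). Hnrnph2 was at 136 CPM in the Imm2 and at 107 and 92.3 CPM in the TF samples of WT-Tacr acute mice, and at 83.3 to 93.7 CPM in WT-Tacr delayed mice. Within TF edgeR called 0 of 65 genes, with 4 at an unadjusted p below 0.05, and 0% of all 15984 genes tested there.

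Against non-stroked WT mice, WT-Tacr acute mice had 5 higher (Snrpg, Snrpe, Snrpd2, Snrpb and Srsf6) and 2 lower genes (Sf3a1 and Hnrnpul2), against 6.18% and 2.36% of all genes tested. This comparison shares its 4 controls with that of stroked WT mice. Snrpg was at 2.29 CPM in the Imm2 sample and at 5.70 and 7.53 CPM in the TF samples, and Snrpe at 5.62 against 11.95 and 13.21 CPM, so the Imm2 sample lay below 4 and below 3 of the 4 non-stroked WT samples. With the cohort as a covariate, and within Imm2 with this single treated sample, edgeR called 0 genes (within Imm2 1 at an unadjusted p below 0.05). Of all genes the covariate fit called 0.258% higher and 0.047% lower, and the Imm2 fit 0.24% and 0%.

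Among stroked mice, NSG had 2 higher (Snrpa1 and Hnrnpab) and 9 lower genes (Srsf3, Srsf7, Sf3b1, Sf3b3, Prpf4b, Prpf4, Prpf18, Prpf39 and Hnrnpk) than WT, against 6.6% and 6.27% of all genes tested. The NSG samples are all in Imm2 and the WT samples in both cohorts. Srsf7 was at 62.8, 53.8 and 59.4 CPM in stroked NSG, at 63.1 and 68.4 CPM in the WT samples of Imm2 and at 103 and 104 CPM in those of TF (-0.52 ± 0.161 in log2, edgeR adjusted p = 0.0317). Srsf3 followed the same order with 62.3, 50.2 and 56.5 CPM, 63.7 and 73.4 CPM, and 96.5 and 102 CPM (-0.57 ± 0.138 in log2, edgeR adjusted p = 0.00698). Within Imm2 edgeR called 0 of 65 genes, against 2.2% of all genes higher and 2.48% lower. At an unadjusted p below 0.05 it gave 5 of the 65 there, and the count of all genes at this level is not given here. NSG against Rag2-/- stroked mice, a comparison inside Imm2, gave 2 higher (Snrpa1 and Hnrnpc) and 2 lower genes (Prpf39 and Hnrnpr), against 4.2% and 4.24% of all genes tested. Prpf39, a U1-associated protein gene, was at 45.7, 53.8 and 55.3 CPM in NSG and at 60.7, 58.1 and 72.0 CPM in Rag2-/- mice (-0.30 ± 0.0902 in log2, edgeR adjusted p = 0.0371). Snrpa1 was at 28.8, 16.1 and 20.2 CPM against 15.2, 13.5 and 16.8 CPM, with overlap (0.52 ± 0.141 in log2, edgeR adjusted p = 0.0211). Without the first NSG library only Hnrnpr passed, against 1.98% of all genes higher and 2.58% lower.

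Fold changes were set against the length of the mRNA. After stroke in NSG mice Spearman's rho of the log2 fold change with length was -0.67 over the 65 genes and -0.42 over 17012 genes with a known length, so that shorter mRNAs had higher values. After stroke in WT mice it was -0.31 with all samples (-0.24 over all genes) and -0.70 within Imm2 (-0.31 over all genes), in Rag2-/- mice it was -0.21 (-0.13 over all genes), and between non-stroked Rag2-/- and WT mice -0.53 (-0.26 over all genes). Between non-stroked NSG and WT mice rho was -0.30 with length (-0.10 over all genes) and 0.27 with GC content (0.13 over all genes). For the cohort term it was 0.06 with length (-0.03 over all genes) and -0.34 with GC content (-0.13 over all genes). These are descriptions across genes that share libraries. All 12 Snrp genes had estimates above 0 after stroke in NSG mice, with 2 called, and 7 of 13 Prpf genes had estimates below 0. Without the first stroked NSG library 5 of the 12 Snrp genes had estimates above 0, with 0 called and a median of -0.007, and rho was -0.40 over the 65 genes and -0.19 over all genes.

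**Figure D5:**
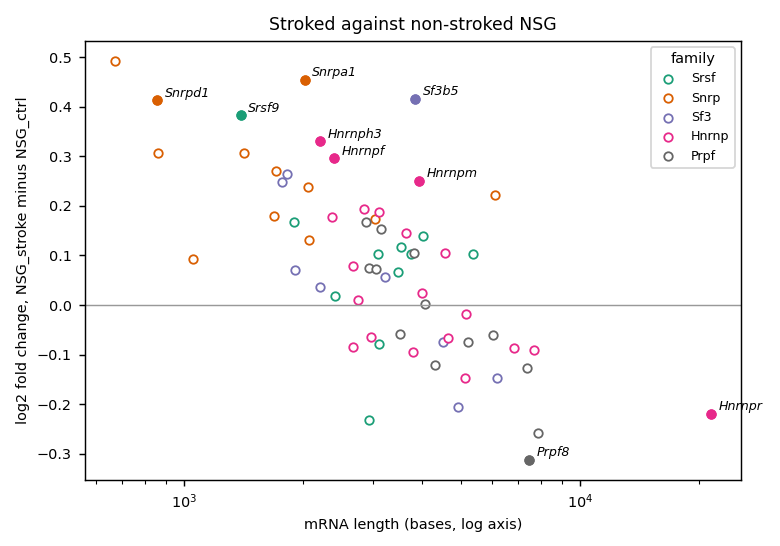
Log2 fold change of stroked against non-stroked NSG mice for the 65 genes, coloured by family. The log axis gives the length in bases of the transcript with the longest coding sequence. Filled, named points are the 9 called genes; the longest transcripts, such as Hnrnpr and Prpf8, lie below 0 and short Snrp transcripts above it.

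Snrpn, the imprinted neuronal counterpart of Snrpb, had 852 to 940 CPM in non-stroked WT, 873 to 1034 CPM in Rag2-/- and 761 to 926 CPM in NSG mice, with no call between strains. After stroke it was at 898 and 856 CPM in Imm2 and at 575 and 589 CPM in TF samples of WT mice, at 692 to 795 CPM in Rag2-/- and at 1298, 698 and 781 CPM in NSG mice. Its exons share 27.3% of their bases with Gm38393 and 10% with Snurf on the same strand. Gm38393 was at 528 to 608 CPM in non-stroked WT and at 274 to 351 CPM in WT-Tacr delayed mice, so the value of Snrpn depends on how reads were divided and is uncertain. On the opposite strand, exons of Snrpf share 65.9% of their bases with Ccdc38, those of Hnrnpab 29.1% with Phykpl, those of Sf3a2 16.1% with Plekhj1 and those of Srsf2 15.6% with Mettl23, and whether counting used the strand is not given in the sources used here. Snrpb itself was at 35.0 to 40.4 CPM in non-stroked WT, 31.7 to 37.4 CPM in Rag2-/- and 27.6 to 34.0 CPM in NSG mice, with every NSG below every WT sample (-0.23 ± 0.112 in log2, edgeR adjusted p = 0.22). In stroked WT mice Snrpb was at 44.0 and 39.3 CPM in Imm2 and at 49.0 and 55.2 CPM in TF samples, and in WT-Tacr delayed mice at 50.5 to 52.3 CPM.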

How the data were processed

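RNA of 29 cortical samples in 8 groups was analysed. According to the study's methods, RNA was extracted with TRIzol and RNeasy columns, polyA-selected and prepared with a stranded kit, and alignment and counting were done by a core facility. Raw counts per Ensembl gene were deposited by the authors. Aligner, genome build and counting settings are not given in the sources used here. Names, positions and transcript lengths are from GENCODE M21 (GRCm38), which held 25712 of the 25746 IDs, and promoters from RefSeq.

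The tests used edgeR 4.0.16 under R 4.3.3, with TMM factors, filterByExpr by group (17031 genes kept), a quasi-likelihood model and Benjamini-Hochberg adjustment. The SE is the absolute log2 fold change divided by the square root of F. CPM uses TMM-adjusted library sizes, and factors ran from 0.903 to 1.13. Library depth was 17789044 to 43403413 counts. The scripts were tested on simulated data. Alternatives were RLE and no normalization factors, no filter, DESeq2 1.42.0, only the groups compared, the cohort or Ddx3y as a covariate, a minimum log2 fold change of 1, a replicate block and leaving out each sample. Fits within a cohort or of non-stroked samples only were added after the data were seen.

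The genes and lists were chosen with earlier results of these data known. The text names genes called in both NSG comparisons, the 3 called genes with the largest change per direction in each other comparison, the genes behind counts of 5 or fewer, the highest and lowest gene per family and length, Snrpn and Snrpb, and genes called in opposite directions; other names were chosen after their values were seen. Where nothing says that samples come from separate litters, p-values measure only the spread between these samples. Protein sequences were not used here. For 2 of the 3 WT-Tacr acute samples the mouse number in the deposited name differs from that in the title, so which mouse they came from is uncertain; their group was taken from the labels.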

Additional observations from a re-analysis of the deposited data

Results flagged for a closer look

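In groups of 4 or 5 samples, 6 of 116 combinations of a named gene and a group had a sample far from the others by Dixon's ratio, about the 1 in 20 that chance gives. Hnrnpd, an hnRNP gene, was at 176 CPM in the fifth non-stroked WT sample against 164 to 166 CPM in the others, at 167 CPM in the third non-stroked NSG sample against 152 to 153 CPM, and at 123 CPM in the second WT-Tacr delayed sample against 135 to 140 CPM. Hnrnpul2 was at 307 CPM in the third non-stroked WT sample (others 332 to 334 CPM), Snrpa1 at 18.2 CPM in the fourth non-stroked NSG sample (others 14.9 to 15.3 CPM) and Snrpb at 40.4 CPM in the fourth non-stroked WT sample (others 35.0 to 35.5 CPM).

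In 5 cases every stroked sample of one strain moved away from the mean of its non-stroked samples in the opposite direction to every stroked sample of another strain. Hnrnpm had a log2 fold change of 0.25 after stroke in NSG and of -0.08 in WT mice; this difference did not pass edgeR's test (adjusted p = 0.198). Between NSG and Rag2-/- mice the log2 fold changes were 0.41 and -0.08 for Snrpd1, 0.42 and -0.11 for Sf3b5, -0.15 and 0.15 for Sf3b1 and -0.12 and 0.15 for Prpf39. The difference between these responses was not tested.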

How the results depend on the processing

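The number of the 65 genes called in each comparison depended on which samples set the spread and on the cohort. For non-stroked NSG against WT mice (5 called) it was 3 without normalization factors, 13 with the cohort as a covariate or with only non-stroked samples, 11 with only the groups compared, 9 within Imm2 and with DESeq2, and 0 with a minimum log2 fold change of 1; leaving out a sample gave 3 to 6. For NSG against Rag2-/- mice (1 called) it was 3 with the cohort as a covariate, 5 with Ddx3y as a covariate or only non-stroked samples, 4 with only the groups compared, 2 within Imm2, 0 with the minimum fold, and 0 to 1 without a sample. Every call of these alternatives was lower in NSG mice. The share of all genes called lower also moved with the fit. Against WT mice it was 4.92% in the main fit, 9.9% with only non-stroked samples and 3.84% without normalization factors. Against Rag2-/- mice it was 3.26% in the main fit and 4.7% with Ddx3y as a covariate. A change in these counts is thus not by itself a result about the 65 genes. Rag2-/- against WT mice gave 0 throughout.

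Replicate numbers are shared by the non-stroked groups, but deviations of same-numbered samples correlated between -0.284 and 0.159, so the numbers are not taken as pairs. With the replicate block 2 genes were called for NSG against WT and 4 for NSG against Rag2-/- mice, against 4 and 4 from these samples without it. No other call was made or lost for Rag2-/- against WT mice.

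For stroke in WT mice (13 called) 3 passed with the cohort as a covariate, 2 within Imm2 and 5 to 21 without a sample (21 without the first, 5 without the third and 6 without the fourth stroked sample, 6 without the first control). For stroke in NSG mice (9) it was 0 with only the groups compared and 1 to 12 without a sample (1 without the first stroked sample). In Rag2-/- mice (0) it was 1 with the cohort as a covariate and 2 with only the groups compared. For WT-Tacr acute against non-stroked WT mice (7) it was 0 with the cohort as a covariate or only the groups compared, and 0 to 27 without a sample. The 27 came without the Imm2 sample, which leaves 2 TF samples against controls that are all in Imm2. In that fit cohort and stroke with tacrolimus cannot be told apart, and its share of all genes called is not given here. Within Imm2 Snrpe and Snrpg turned to -0.069 and -0.203 in this comparison, from 1 treated sample assumed to vary like the other groups. For stroked NSG against WT mice (11) it was 1 with the cohort as a covariate, 0 with only the groups compared or within Imm2, and 1 to 19 without a sample. For stroked NSG against Rag2-/- mice (4) it was 0 with only the groups compared, 2 within Imm2 and 1 to 7 without a sample. For WT-Tacr delayed against stroked WT mice (0) it was 2 with DESeq2 and 0 to 5 without a sample, and against WT-Tacr acute mice (3) it was 1 with the cohort as a covariate, 0 with only the groups compared or within TF, 5 with DESeq2 and 0 to 8 without a sample. The difference between NSG and WT responses (0) gave 0 to 1 without a sample. Fits of only the groups compared rest on fewer samples; the cause of the other shifts was not tested.

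The median log2 fold change of the 65 genes for non-stroked NSG against WT mice was -0.08 to -0.10 without any 1 sample and -0.042 without normalization factors, and kept its sign in each alternative. With 3 to 5 samples per group the median SE of the 65 genes was 0.0892 to 0.108 between groups, which limits what can be detected in a single gene.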

Other observations

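Between the cohorts, genes of the other splicing lists were also called in both directions. Of 54 other spliceosome components 6 were higher and 11 lower in TF libraries, of 30 SR-related and exon-junction factors 4 were higher and 9 lower, and of 40 tissue-regulated splicing regulators 5 were higher and 15 lower. Over all genes tested 13.2% were higher and 14.4% lower. Of 13 genes for snRNP assembly and import 4 were higher and 2 lower. The lists were chosen with earlier results of these data known. After stroke in WT mice within Imm2, 0 of the 54 spliceosome components were higher and 1 was lower, and 0 of the 40 tissue-regulated regulators were higher and 4 lower, while 9 of 10 markers of microglia and macrophages were higher.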
